A study of Mus musculus with 144 samples.

Results

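Bhlhe40, Bhlhe41, Ciart, Usp2, Wee1, Cdkn1a, Gadd45a and Ccnd1 were followed through the day in mouse liver. They were taken by name, as 8 of the 51912 genes of the deposited count table, with the 18 of 29199 filtered polyadenylation sites that lie in them. Bhlhe41 and Ciart have no site in that list, so sites are described for the other 6 genes. The assay was QuantSeq 3′ mRNA sequencing, which reads the end of a transcript next to its poly(A) tail, so that a transcript's count does not grow with its length. Male C57BL/6J mice were kept under 12 h light and 12 h dark with food and water at will, and livers were taken at zeitgeber times (ZT, hours after lights on) 2, 6, 10, 14, 18 and 22. Wild-type (WT) mice gave total, nuclear and polysomal RNA and Bmal1-/- mice gave total RNA, with 6 libraries per time in each of these 4 series. The labels give no age, do not say which part of Bmal1 is deleted, and do not say whether the libraries of a group come from separate animals. The p-values therefore measure the spread between these libraries, which may be technical. In whole liver, fewer cells of a type and less RNA per cell cannot be told apart.

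BMAL1 pairs with CLOCK and binds E-boxes, DNA elements whose canonical form is CACGTG, and this drives a daily wave of transcription. Among the driven genes are repressors that act back on the pair. Ciart (CHRONO) binds BMAL1, and Bhlhe40 (DEC1) and Bhlhe41 (DEC2) are basic helix-loop-helix proteins that occupy E-boxes themselves. Usp2 encodes a ubiquitin-specific protease with clock proteins among its substrates, and Wee1 encodes the kinase that holds back entry into mitosis. Cdkn1a (p21) inhibits cyclin-dependent kinases, Gadd45a belongs to the growth arrest and DNA damage response, and Ccnd1 (cyclin D1) promotes the start of the cell cycle.

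The sequences shown are those of the members whose start-site windows hold the canonical E-box. RefSeq promoter windows of assembly GRCm38.p6, from 250 bases before to 50 bases after a gene's start, were found for 5 of the 8 genes (Bhlhe41, Ciart, Usp2, Gadd45a and, with 2 starts, Cdkn1a). CACGTG, which reads the same on both strands, occurred 3 times in the Ciart window, beginning 116, 58 and 44 bases before the start, and 1 time in the Bhlhe41 window, 153 bases before the start. The windows of Usp2, Gadd45a and Cdkn1a held none. The only Usp2 window, chr9:44084670-44084969, lies inside the annotated gene (chr9:44067021-44095627, plus strand). The sequence at the outer start of Usp2 was thus not searched. Of all 32851 windows in the table, 6.02% held CACGTG and 0.0609% (20 windows) held it 3 times or more. No member window held CACGTT (3.85% of all windows), TTATGTAA (0.819%) or TAGGTCA (2.23%), each searched on both strands. A match is a run of letters in this window and says nothing of binding in these livers. The 250 bases before the start are given 5′ to 3′ on the gene's strand with CACGTG in capitals, for Ciart from chr3:95882229-95882478 and for Bhlhe41 from chr6:145865421-145865670, both on the minus strand.
Ciart: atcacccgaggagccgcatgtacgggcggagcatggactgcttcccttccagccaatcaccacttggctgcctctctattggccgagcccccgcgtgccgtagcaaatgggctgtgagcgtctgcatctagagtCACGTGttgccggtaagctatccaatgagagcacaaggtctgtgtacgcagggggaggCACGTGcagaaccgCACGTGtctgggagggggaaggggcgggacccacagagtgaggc
Bhlhe41: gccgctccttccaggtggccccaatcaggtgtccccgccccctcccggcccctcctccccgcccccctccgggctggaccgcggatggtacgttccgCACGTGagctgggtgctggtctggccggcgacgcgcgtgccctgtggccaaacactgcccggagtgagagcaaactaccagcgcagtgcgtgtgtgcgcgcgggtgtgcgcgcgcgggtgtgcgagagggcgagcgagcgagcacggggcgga

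Gene counts summed to 1662449 to 14281894 per library (median 6431391), and levels are given as CPM, the count scaled to that sum in the usual way. Arntl, the gene of BMAL1, was still read in Bmal1-/- libraries, at time means of 9.16 to 13.1 CPM against 0.852 to 12.6 CPM in WT total RNA. A 3′ tag outside the deleted part does not check the genotype. In 3 libraries labelled ZT14 (replicate 4 of WT total, replicate 4 of WT nuclear and replicate 3 of WT polysomal RNA) the core clock genes were nearest to the ZT22 profile. Their distance to their own time was more than 1.5 times that to ZT22. With these included, 2 of 36 WT total, 4 of 36 nuclear and 4 of 36 polysomal libraries were nearest to a time other than their label. For the others the ratio of distances was below 1.5. Xist was above 100 CPM in 4 libraries labelled male, all of ZT22, where no other library exceeded 5.671 CPM. Whether the sex label of these 4 holds was not tested. Hepatocyte markers summed to a median of 70917 CPM in WT and 57188 CPM in Bmal1-/- total RNA. Of the markers of other cells tested between the genotypes, 5 of 6 Kupffer cell, 4 of 5 erythroid and 2 of 2 adipocyte markers were lower in Bmal1-/-, and 2 of 2 cholangiocyte markers were higher. Of 6 stellate cell markers 2 were higher and 1 lower, and of 6 sinusoidal endothelium markers 1 was higher and 1 lower. Among 6 hepatocyte markers 2 were higher and 1 lower. Over all genes tested 21.7% were called higher and 22.4% lower. Summed cholangiocyte markers ran from 45.8 to 135.7 CPM in Bmal1-/- and from 16.2 to 66.6 CPM in WT, and the part of any of these cells in the results was not tested.

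Ciart (chr3:95878500-95882257, RefSeq gene locations of GRCm38.p6 here and for the other genes) had the highest peak-to-trough ratio of the 3 repressors in WT total RNA and was close to 0 in Bmal1-/- liver. In WT total RNA the lowest, median and highest of the 6 libraries were 0, 0.0520 and 0.376 CPM at ZT2 and 10.5, 15.6 and 19.3 CPM at ZT10. The ZT10 libraries lay above those of every other time, and at ZT22 the level was 0.133 to 0.407 CPM. A 24 h cosine fitted to the 36 WT total libraries peaked at ZT11.6 (SE 0.369 h) with a peak-to-trough ratio of 58.3 (edgeR quasi-likelihood test, adjusted p = 1.56e-08). In the 36 Bmal1-/- libraries 24 Ciart counts were read in all, with 0 at ZT6 and no library above 0.749 CPM. Pooled over the day the WT level was 46.6 times the Bmal1-/- level, with a 95% interval of 31.1 to 73.0. At ZT10, where the genotypes did not overlap, 710 counts in WT against 8 in Bmal1-/- gave a ratio of 87.1 (95% interval 44.0 to 203). These intervals are exact for counts and cover counting error only.

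Bhlhe41 (chr6:145858243-145865420) was also close to 0 in Bmal1-/- liver. WT total libraries had 2.32, 4.65 and 14.4 CPM (lowest, median, highest) at ZT10 and 0, 0.557 and 1.19 CPM at ZT22. These groups did not overlap, and the fitted peak lay at ZT9.10 (SE 0.544 h) with a ratio of 15.6 (edgeR, adjusted p = 1.23e-05). In Bmal1-/- liver 15 counts were read in 36 libraries against 807 in WT, a pooled ratio of 55.7 (95% interval 33.6 to 100.0, counting error only). The edgeR comparison passed at each of the 6 times for Bhlhe41, with adjusted p from 3.71e-09 at ZT10 to 0.0459 at ZT22. The ZT22 call was lost within replicates 1 to 3 (adjusted p = 0.0682). For Ciart the comparison passed from ZT6 to ZT18, and the calls at ZT6 and ZT18 were lost within replicates 4 to 6 (adjusted p = 0.378 and 0.107). Bhlhe41 and Ciart averaged 22.4 and 30 counts per library in WT total RNA and 0.417 and 0.667 in Bmal1-/-. Both reached the minimum mean count for this comparison only through WT, so the filter favoured lower Bmal1-/- values. The edgeR calls of these genes are therefore given as a description.

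Bhlhe40 (chr6:108660629-108666925), the paralog of Bhlhe41, had no called difference in average level between the genotypes. WT total libraries had 9.18, 13.9 and 40.0 CPM at ZT2 and 38.5, 50.4 and 56.4 CPM at ZT14, with 1 ZT2 library inside the ZT14 range. The WT rhythm peaked at ZT12.7 (SE 0.681 h) with a ratio of 2.65 (edgeR, adjusted p = 5.06e-04). In Bmal1-/- liver the medians at the 6 times lay between 31.8 and 43.3 CPM. The log2 difference of Bmal1-/- from WT, averaged over the day, was 0.15 (SE 0.12, adjusted p = 0.323). Replicates 1 to 3 alone gave -0.08 and replicates 4 to 6 alone gave 0.47 (adjusted p = 0.00774). At ZT2, where Bmal1-/- libraries had 21.0, 31.8 and 53 CPM, the difference was 0.85 (adjusted p = 0.0522). Without the libraries with high Xist, which are all of ZT22 and take no library from ZT2, the adjusted p was 0.0429. With median-ratio scaling it was 0.0460. Within replicates 4 to 6 the difference was 1.55 at ZT2 (adjusted p = 0.00564) and 1.31 at ZT6 (adjusted p = 0.0268). Within replicates 1 to 3 it was -0.69 at ZT6 (adjusted p = 0.212). The difference in rhythm between the genotypes had an adjusted p of 0.0604, and of 0.0323 without the libraries with high Xist.

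**Figure D1:**
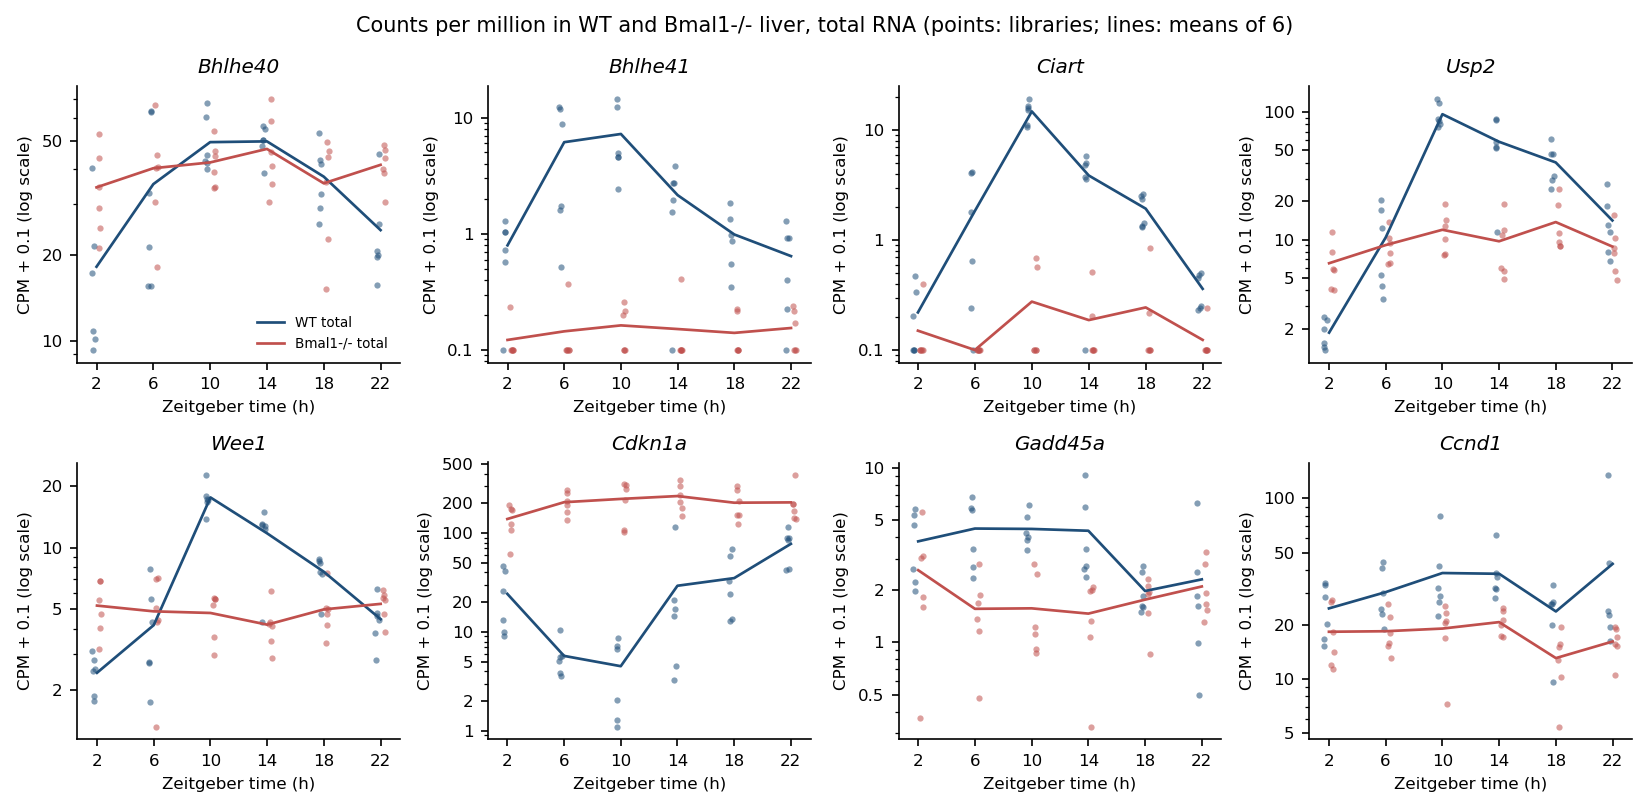
CPM + 0.1 (log scale) of each gene against zeitgeber time in total RNA of WT (blue) and Bmal1-/- (red) liver; points are libraries and lines join the means of 6. Ciart and Bhlhe41 lie near the floor in Bmal1-/-, and every Bmal1-/- library lies below every WT library for Usp2 and Wee1 at ZT10 and above every WT library for Cdkn1a at all 6 times.

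Usp2 (chr9:44067021-44095627) had a steep daily rhythm in WT liver, and its Bmal1-/- levels lay between the WT levels of ZT2 and ZT10. WT total libraries had 1.27, 1.67 and 2.39 CPM (lowest, median, highest) at ZT2 and 76.6, 86.4 and 126.9 CPM at ZT10. The fitted rhythm peaked at ZT13.6 (SE 0.375 h) with a ratio of 25.3 (edgeR, adjusted p = 4.19e-07). Bmal1-/- libraries had 3.91, 5.72 and 11.4 CPM at ZT2 and 7.50, 11.4 and 18.9 CPM at ZT10. All of them were thus above WT at ZT2 and below WT at ZT10, and also below WT at ZT18. At ZT14 the ranges overlapped through WT replicate 4, which had 11.4 CPM where the other 5 had 52.3 to 87.7 CPM.

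The genotype difference of Usp2 changed sign over the day. On the log2 scale it was 1.77 (SE 0.47, adjusted p = 0.00816) at ZT2 and -3.11 (SE 0.39, adjusted p = 9.17e-09) at ZT10. It was -2.71 at ZT14 and -1.75 at ZT18, both called, while -0.25 at ZT6 and -0.80 at ZT22 did not pass. Averaged over the day Usp2 fell by 1.14 (SE 0.16, adjusted p = 2.68e-08). The rhythm differed between the genotypes (adjusted p = 2.47e-05). Within replicates 4 to 6 the rhythm difference (adjusted p = 0.0657) and the ZT2 difference (adjusted p = 0.159) did not pass.

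Wee1 (chr7:110122059-110143299) was likewise higher in Bmal1-/- at ZT2 and lower at ZT10, over a smaller range. WT total libraries had 1.68, 2.42 and 3.01 CPM at ZT2 and 13.8, 17.2 and 22.6 CPM at ZT10. Bmal1-/- libraries had 3.08, 5.04 and 6.77 CPM at ZT2, all above WT, and 2.87, 5.30 and 5.58 CPM at ZT10, all below WT. The WT peak lay at ZT13.0 (SE 0.384 h) with a ratio of 6.05 (edgeR, adjusted p = 1.94e-08). The log2 differences called were 1.04 at ZT2, -1.97 at ZT10, -1.61 at ZT14 and -0.82 at ZT18, and the rhythm differed between the genotypes (adjusted p = 1.42e-08). Averaged over the day Wee1 fell by 0.51 (SE 0.11, adjusted p = 7.01e-05), and within replicates 4 to 6 the value was -0.31 (adjusted p = 0.0823). The ZT18 call was lost within either set of 3 replicates (adjusted p = 0.131 and 0.196) and the ZT2 call within replicates 4 to 6 (0.172).

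At ZT6 the WT libraries of these genes divided by replicate number. Usp2 in WT total RNA had 12.2 to 20.2 CPM in replicates 1 to 3 and 3.30 to 5.15 CPM in replicates 4 to 6. In nuclear RNA these sets had 65.7 to 92 and 13.5 to 17.7 CPM. In polysomal RNA the order was the reverse, with 3.07 to 4.44 CPM in replicates 1 to 3 and 15.7 to 22.3 CPM in replicates 4 to 6. Bhlhe41 in WT total RNA showed the same division, with 8.62 to 12.3 and 0.417 to 1.64 CPM. In Bmal1-/- liver the 2 sets of Usp2 overlapped, at 6.40 to 10.2 and 6.48 to 13.7 CPM. By core clock genes WT total replicate 3 and nuclear replicates 1 and 2 of ZT6 were nearest to ZT10, and polysomal replicate 1 to ZT2. The other ZT6 libraries of WT were nearest to ZT6. The labels name no batch for these sets, and what divides them was not tested.

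Cdkn1a (chr17:29090979-29100722) was the member that rose in Bmal1-/- liver, with the largest difference at ZT10, when the WT mean was lowest. WT total libraries had 1.01, 4.28 and 8.60 CPM at ZT10 and 42.6, 87.1 and 116.1 CPM at ZT22. The WT rhythm peaked at ZT20.2 (SE 0.502 h) with a ratio of 15.9 (edgeR, adjusted p = 1.82e-05). Bmal1-/- libraries had 102.0, 248.7 and 311.7 CPM at ZT10 and 137.1, 181.6 and 385.7 CPM at ZT22. At each of the 6 times every Bmal1-/- library was above every WT library.

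The log2 difference of Cdkn1a was 2.43 at ZT2, 5.13 at ZT6, 5.56 at ZT10 (SE 0.60, adjusted p = 1.16e-10), 3.0 at ZT14 and 2.35 at ZT18, all called. At ZT22 it was 1.27 (adjusted p = 0.102, and 0.0468 without the 3 ZT14 libraries that stood apart). Leaving those out takes no library from ZT22, and the difference stayed at 1.27. Averaged over the day Cdkn1a rose by 3.29 (SE 0.22, adjusted p = 5.06e-20), a fold of 9.79. The rhythm differed between the genotypes (adjusted p = 8.86e-06), though not within replicates 4 to 6 (0.0593). At ZT14 WT total replicate 4 had 115.5 CPM and the other 5 had 3.13 to 20.7 CPM, and within replicates 4 to 6 the ZT14 difference did not pass (2.20, adjusted p = 0.201).

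**Figure D2:**
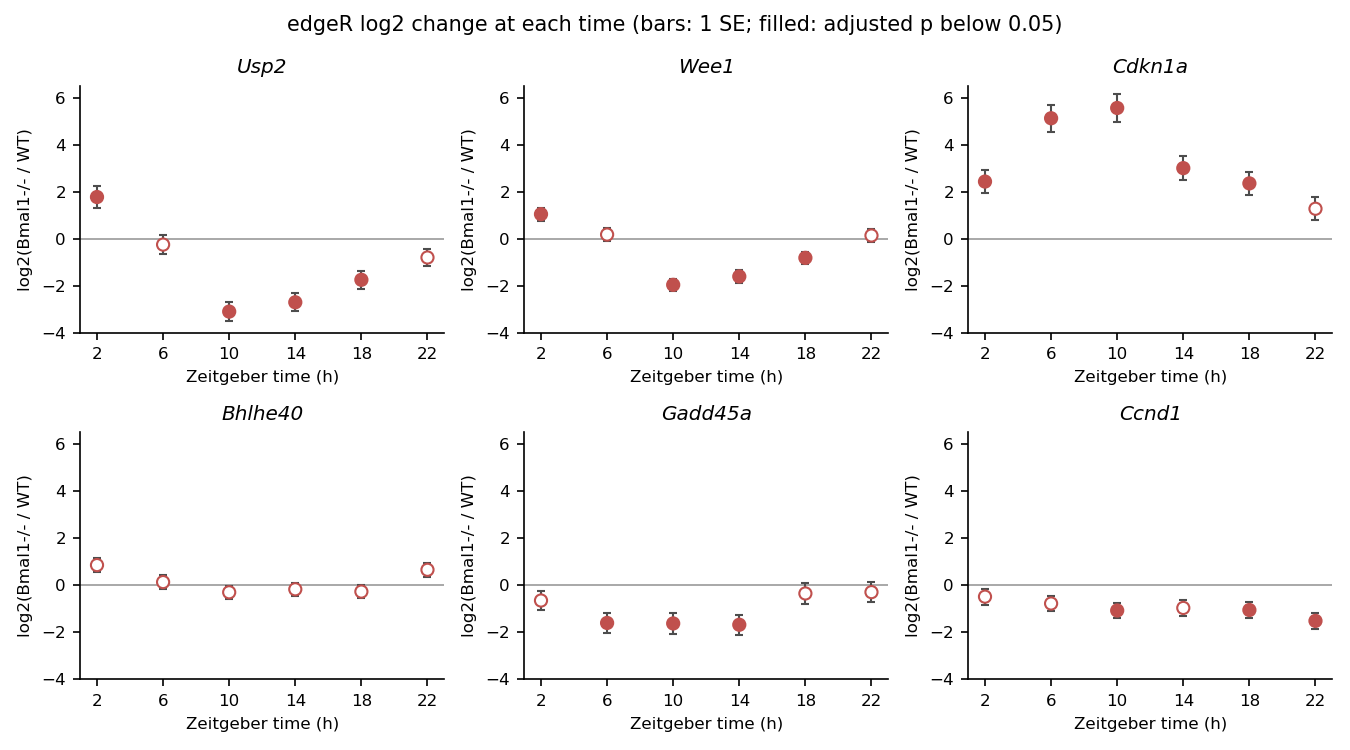
edgeR log2 difference of Bmal1-/- from WT total RNA (y axis) against zeitgeber time (x axis) for 6 genes; bars are 1 SE and filled points have an adjusted p below 0.05. Usp2 and Wee1 pass from 1.77 and 1.04 at ZT2 to -3.11 and -1.97 at ZT10, while Cdkn1a lies above 0 throughout and is highest at ZT10 (5.56).

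Gadd45a (chr6:67035096-67037407) was low in all series and fell in Bmal1-/- liver from ZT6 to ZT14. WT total libraries had 3.27, 4.02 and 5.99 CPM at ZT10, and Bmal1-/- libraries had 0.767, 1.07 and 2.69 CPM. The genotypes did not overlap at ZT10 or ZT14. The log2 differences called were -1.61 at ZT6, -1.63 at ZT10 and -1.69 at ZT14 (adjusted p = 0.00947, 0.00515 and 0.00590). Each was lost within 1 set of 3 replicates: ZT6 and ZT14 within replicates 4 to 6 (0.359 and 0.794) and ZT10 within replicates 1 to 3 (0.0760). Averaged over the day Gadd45a fell by 1.04 (SE 0.18, adjusted p = 1.59e-06). Its WT rhythm was marginal, with a peak at ZT8.34 (SE 1.12 h), a ratio of 2.21 and an adjusted p of 0.0445, which was 0.158 with time as a factor and 0.0695 without the libraries with high Xist.

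Ccnd1 (chr7:144929931-144939831) fell in Bmal1-/- liver and had no called rhythm in any series. In WT total RNA the medians of the 6 times lay between 23.0 and 34.2 CPM and in Bmal1-/- between 13.7 and 20.6 CPM. The fitted WT ratio of peak to trough was 1.17 (edgeR, adjusted p = 0.881). Averaged over the day Ccnd1 fell by 0.98 (SE 0.14, adjusted p = 1.92e-08), a fold of 1.98. The difference was called at ZT10 (-1.08), ZT18 (-1.06) and ZT22 (-1.52, adjusted p = 0.00221). The ZT10 call was lost within replicates 4 to 6 (adjusted p = 0.556) and the ZT18 call within either set (0.227 and 0.102). At ZT14 the genotypes did not overlap, with a log2 difference of -0.97 and an adjusted p of 0.0539 (0.0177 without the libraries with high Xist and 0.0396 without the ZT14 libraries that stood apart). The libraries with high Xist are of ZT22, so the first of these takes no library from ZT14, and its difference stayed at -0.97.

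The ZT22 value of Ccnd1 rested on 1 library. WT total replicate 5 had 134.4 CPM and the other 5 had 16.1 to 43.6 CPM. That library is 1 of the 4 with Xist above 100 CPM, and without these the ZT22 difference was -0.80 (adjusted p = 0.137). The nuclear (replicate 5) and polysomal (replicate 1) ZT22 libraries with high Xist were also the highest of their groups, at 210.0 CPM against 38.3 to 80.1 CPM and at 137.8 CPM against 30.4 to 82.4 CPM. What these libraries share was not tested.

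Of the 8 members, 6 fell, 1 rose and 1 did not pass in the averaged comparison of Bmal1-/- with WT, where 22.4% of the 12082 genes tested were called lower and 21.7% higher. In either direction 44.2% of genes were called. The 6 that fell include Ciart and Bhlhe41, which reached the count minimum only through WT, and this holds for the counts by time below. The median log2 difference was -1.01 over the members and -0.00 over all genes. By single times the members called were 4 at ZT2 (against 9.68% of genes), 4 at ZT6 (10.1%), 7 at ZT10 (16.3%), 6 at ZT14 (9.75%), 6 at ZT18 (12.6%) and 2 at ZT22 (7.05%). All WT libraries were above all Bmal1-/- libraries for 1 member at ZT6 (Bhlhe41, against 2.25% of genes), for 5 at ZT10 (Bhlhe41, Ciart, Usp2, Wee1 and Gadd45a, against 3.40%), for 2 at ZT14 (Gadd45a and Ccnd1, against 1.13%) and for 3 at ZT18 (Bhlhe41, Ciart and Usp2, against 1.24%). They were below them for Usp2, Wee1 and Cdkn1a at ZT2 (against 2.37%) and for Cdkn1a at ZT6, ZT10, ZT14, ZT18 and ZT22 (against 3.39%, 5.95%, 2.02%, 6.02% and 2.97%). A rhythm was called in WT total RNA for 7 of 8 members against 18.9% of 11964 genes. In Bmal1-/- it was called for 0 of the 6 members that could be tested, against 0.00825% of 12126 genes by edgeR, with unadjusted p from 0.0669 (Usp2) to 0.487 (Bhlhe40) and 491 genes at an unadjusted p below 0.05. DESeq2 called 0 genes there. A difference in rhythm was called for Usp2, Wee1 and Cdkn1a, against 5.11% of genes, and not for Ciart (adjusted p = 0.213) or Bhlhe41 (0.475), which had 24 and 15 counts in all Bmal1-/- libraries.

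In the order of fitted WT peaks Gadd45a (ZT8.34) and Bhlhe41 (ZT9.10) came first and also lay apart by less than the sum of their SEs. Ciart (ZT11.6), Bhlhe40 (ZT12.7), Wee1 (ZT13.0) and Usp2 (ZT13.6) followed, and the neighbours Bhlhe40 and Wee1, and Wee1 and Usp2, lay apart by less than the sum of their SEs. Cdkn1a (ZT20.2) came last. The place of Bhlhe41 joins sets of 3 replicates that differed. Replicates 1 to 3 had means of 10.9 CPM at ZT6 and 3.87 CPM at ZT10. Replicates 4 to 6 had 1.19 CPM at ZT6 and 10.4 CPM at ZT10. Its place in this order may therefore differ between the sets. The highest sampled mean of Usp2, Wee1 and Ciart was at ZT10, earlier than the fitted peak.

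The WT fractions were compared with WT total RNA next. CPM is a share of each library's own counts, so a value above total RNA is a larger share of that fraction and not a number of molecules. Usp2 and Ccnd1 had the largest nuclear excess. At ZT10 Usp2 libraries had 247.0, 258.2 and 332.4 CPM in nuclear RNA, all above the total range of 76.6 to 126.9 CPM, and 113.0, 131.9 and 179.0 CPM in polysomal RNA. Averaged over the day Usp2 was higher by 1.76 on the log2 scale in nuclear RNA (SE 0.18, adjusted p = 1.33e-13) and by 0.52 in polysomal RNA (SE 0.18, adjusted p = 0.00633). The polysomal call was lost without polysomal replicate 1 (0.35, adjusted p = 0.0635). Ccnd1 was higher by 1.2 in nuclear RNA (SE 0.15, adjusted p = 6.03e-11) and by 0.68 in polysomal RNA (SE 0.15, adjusted p = 6.03e-05), the latter lost within replicates 4 to 6 (0.33, adjusted p = 0.135).

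Cdkn1a and Wee1 were higher in polysomal RNA. At ZT22 Cdkn1a libraries had 51.1, 170.6 and 255.9 CPM in polysomal and 26.4, 65.2 and 71.7 CPM in nuclear RNA, against 42.6, 87.1 and 116.1 CPM in total RNA, with all 3 ranges overlapping. The averaged polysomal difference of Cdkn1a was 1.03 (SE 0.27, adjusted p = 6.01e-04) and the nuclear one 0.01 (adjusted p = 0.984). At ZT10 Wee1 libraries had 17.2, 34.6 and 49.5 CPM in polysomal RNA, and the averaged difference was 0.82 (SE 0.13, adjusted p = 1.21e-07). Within replicates 1 to 3 neither polysomal difference passed (Cdkn1a 0.51, adjusted p = 0.240, and Wee1 0.38, adjusted p = 0.0545). The nuclear difference of Wee1 was -0.26 (adjusted p = 0.0607). It was called without the ZT14 libraries that stood apart (adjusted p = 0.0405), with genes of a mean of at least 1 count (-0.37, adjusted p = 0.00746) and with the 36 pairs of number and time as a block (-0.27, adjusted p = 0.00567).

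The 3 repressors and Gadd45a differed less evenly. Bhlhe41 was lower by 1.41 in nuclear and by 1.04 in polysomal RNA (log2 differences -1.41 and -1.04, adjusted p = 8.17e-05 and 0.00355), and neither passed within replicates 4 to 6 (0.104 and 0.0755). Bhlhe41 averaged 4.81 counts per library in nuclear, 9.56 in polysomal and 22.4 in total RNA, and Gadd45a 6.06 in nuclear and 27.2 in total RNA. In these comparisons both reached the minimum mean of 10 counts only through total RNA, so the filter favoured lower fraction values. Bhlhe40 was 0.35 higher in nuclear RNA (adjusted p = 0.0199) and -0.45 from total in polysomal RNA (adjusted p = 0.00242). The first was lost when genes with a mean of at least 1 count were kept (adjusted p = 0.123) and the second within replicates 4 to 6 (0.842). Ciart was 0.82 higher in nuclear RNA (SE 0.36, adjusted p = 0.0326), which was lost within replicates 4 to 6 (0.197), without the high-Xist libraries (0.0537) and with the lower count minimum (0.0689). Its polysomal difference was -0.28 (adjusted p = 0.538), and -0.95 without polysomal replicate 1 (adjusted p = 0.0458). Gadd45a was -1.23 in nuclear RNA (SE 0.22, adjusted p = 9.41e-07). Its polysomal value was -0.36 (adjusted p = 0.123), with -1.31 within replicates 1 to 3 (adjusted p = 1.27e-04) and 0.46 within replicates 4 to 6. DESeq2 called it on all libraries (-0.45, adjusted p = 0.0368).

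In each fraction 4 members were called higher and 2 lower. Among the lower, Bhlhe41 in both fractions and Gadd45a in nuclear RNA reached the count minimum only through total RNA. Over all genes 41.6% and 42.1% of 11864 were called higher and lower in nuclear RNA (83.8% in all) and 38.4% and 37.6% of 11556 in polysomal RNA (76.1% in all), so these counts are near the background. Erythroid markers were higher in polysomal RNA for 4 of 5 genes and summed to a median of 8853 CPM against 2586 CPM in total RNA, and their part in these shares was not tested.

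**Figure D3:**
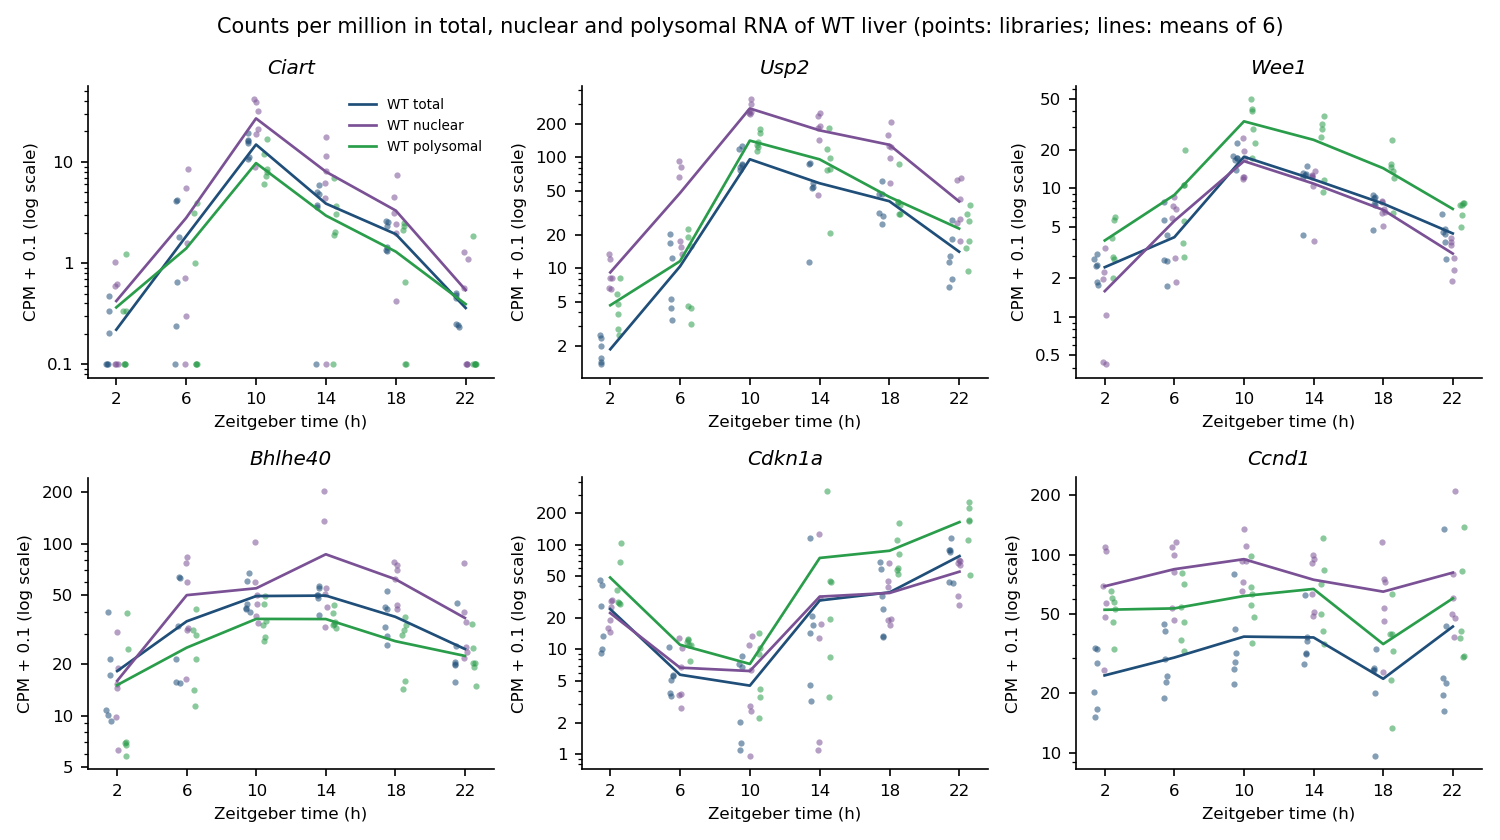
CPM + 0.1 (log scale) against zeitgeber time in WT total (blue), nuclear (purple) and polysomal (green) RNA for 6 genes; points are libraries and lines join the means of 6. At ZT10 all nuclear Usp2 libraries (247.0 to 332.4 CPM) lie above those of total RNA, and the means of Wee1 and Cdkn1a are highest in polysomal RNA at every time.

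The fitted peaks in the fractions lay close to those in total RNA. A rhythm was called for Bhlhe40, Ciart, Usp2, Wee1 and Cdkn1a in nuclear RNA (5 of 6 members tested, against 5.99% of 11172 genes) and for the same genes in polysomal RNA (5 of 7 tested, against 7.90% of 10691 genes). Ciart peaked at ZT11.6 in nuclear and ZT11.5 in polysomal RNA, Usp2 at ZT13.3 and ZT13.7, and Wee1 at ZT12.3 and ZT13.0. Bhlhe40 peaked at ZT13.5 and ZT13.4 and Cdkn1a at ZT19.8 and ZT19.7, so that each fraction peak lay within 1 h of that in total RNA. The peak-to-trough ratio was 65.6 and 38.1 for Ciart, 19.3 and 23.8 for Usp2, 8.18 and 8.04 for Wee1 and 9.33 and 22.7 for Cdkn1a. No difference in rhythm from total RNA was called for any gene (edgeR, 0 of 11864 in nuclear and 0 of 11556 in polysomal RNA, with 244 and 681 at an unadjusted p below 0.05), and the smallest unadjusted p of a member was 0.261, for nuclear Wee1.

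Some fraction rhythms did not pass within 3 replicates: nuclear Bhlhe40 within replicates 1 to 3 (adjusted p = 0.0667), nuclear Cdkn1a within replicates 4 to 6 (0.298), polysomal Bhlhe40 within replicates 4 to 6 (0.253), and polysomal Ciart and Cdkn1a within replicates 1 to 3 (0.141 and 0.198). The nuclear and polysomal ZT14 libraries that stood apart had 0 CPM of Ciart, where the other 5 had 4.31 to 17.7 and 1.80 to 6.82 CPM. Their Cdkn1a was 127.5 and 326.6 CPM, where the other 5 had 0.994 to 30.9 and 3.41 to 44.9 CPM.

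**Figure D4:**
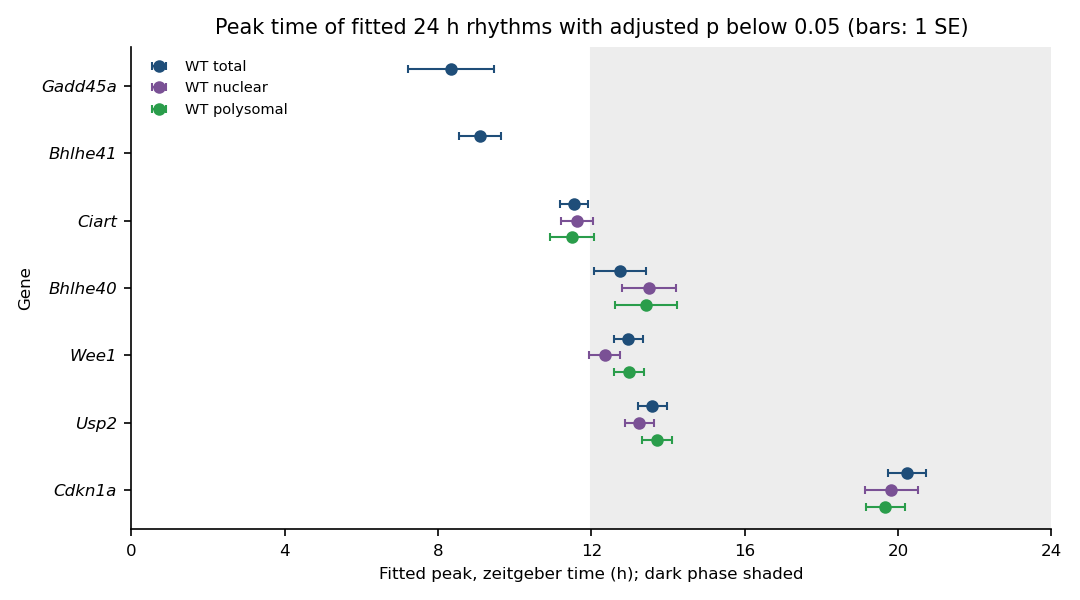
Fitted 24 h peak (x axis, zeitgeber hours, dark phase shaded) of each gene (y axis) whose rhythm had an adjusted p below 0.05 in WT total (blue), nuclear (purple) or polysomal (green) RNA; bars are 1 SE. In total RNA the genes run from Gadd45a at ZT8.34 to Cdkn1a at ZT20.2, and the fractions of a gene lie close together.

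The tags of 6 members fell on several polyadenylation sites, and usage, the share of a gene's site counts at a site, was compared between the fractions for all but Gadd45a. Coordinates are those of the deposited site list (the submitters' processing notes name mm10 and GRCm38.p5). Of the member sites tested, 9 of 11 differed in usage between nuclear and total RNA and 14 of 14 between polysomal and total RNA (edgeR with the gene total as offset), against 78.7% of 11722 and 70.5% of 12416 sites. The nuclear count is near that background. Some sites reached the minimum share for the test only through the fraction, so the filter favoured higher fraction values there. They were chr6:108665902-108665942 of Bhlhe40 in nuclear RNA, and chr9:44094029-44094051 of Usp2 and chr7:144929928-144929939 of Ccnd1 in polysomal RNA. Sites of a gene are also not independent, since a share gained at a site is lost at the others. The polysomal count is therefore not read as an excess. Bhlhe40 has 3 sites. The site at chr6:108663977-108664005 (plus strand) lies 2920 bases before the annotated gene end, and the main site at chr6:108666644-108666780 lies 145 bases before it.

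The upstream Bhlhe40 site held 16.5% of 7846 pooled site counts in total RNA, 58.0% of 3967 in nuclear RNA and 4.39% of 4006 in polysomal RNA. Over the 36 libraries its share had a lowest, median and highest value of 0, 13.4 and 34.3% in total, 7.69, 56.4 and 88.1% in nuclear and 0, 2.63 and 25% in polysomal RNA, and the ranges overlapped. The log2 difference in usage was 1.81 in nuclear (SE 0.14, adjusted p = 1.01e-18) and -2.01 in polysomal RNA (SE 0.31, adjusted p = 8.45e-08). The main site, with 79.4% in total, 34.7% in nuclear and 89.2% in polysomal RNA, differed by -1.15 in nuclear RNA (adjusted p = 1.37e-17) and by 0.12 in polysomal RNA (adjusted p = 0.00240), the latter lost within either set of 3 replicates. The tables used hold no exon boundaries, so whether the upstream site is exonic or intronic is not given here.

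Ccnd1, on the minus strand, differed in usage in both fractions. Its main site at chr7:144929977-144930102, 46 bases before the gene end, held 64.6% of counts in total, 71.9% in nuclear and 33.7% in polysomal RNA. The site at chr7:144932185-144932227, 2254 bases before the end, held 17.8, 9.15 and 32.2%, and the one at chr7:144929928-144929939, at the end, held 1.90, 3.66 and 12.1%. In nuclear RNA the log2 difference in usage was 0.13 at the main site (adjusted p = 0.00152) and -0.90 at the upstream site (adjusted p = 6.82e-09). In polysomal RNA usage differed by -0.99 at the main site (SE 0.07, adjusted p = 1.63e-18), by 0.87 at the upstream site (SE 0.10) and by 2.58 at the last (SE 0.23, adjusted p = 1.04e-15). Sites on both sides of the main one held a larger share in polysomal RNA. The last site reached the minimum share for the test only through polysomal RNA, so the filter favoured its higher polysomal value.

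Usp2 has 4 sites on the plus strand. The site at chr9:44095298-44095314 held 18.1% in total, 39.8% in nuclear and 36.2% in polysomal RNA (log2 differences 1.07 and 1.0, adjusted p = 2.55e-13 and 4.96e-10). The last site, chr9:44095536-44095629, held 30.2, 12.4 and 19.9% (-1.18 and -0.61, adjusted p = 1.04e-11 and 2.28e-04). The first, chr9:44093854-44093938, held 48.1, 46.6 and 36.9%, and was called in polysomal RNA alone of the 2 fractions (-0.41, adjusted p = 7.25e-04).

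The Cdkn1a site at chr17:29099453-29099589, 1133 bases before the gene end, held 69.7% in total, 59.5% in nuclear and 78.8% in polysomal RNA (-0.18 and 0.16, adjusted p = 0.0249 and 0.00634). The nuclear call was lost within replicates 4 to 6 (0.278) and the polysomal one within replicates 1 to 3 (0.364). The Wee1 site at chr7:110142975-110142984 held 20.1% in total, 8.19% in nuclear and 11.3% in polysomal RNA. Its polysomal difference was -0.96 (adjusted p = 0.00355, and 0.295 within replicates 4 to 6). In nuclear RNA Wee1 was below the minimum of 50 site counts, and with a minimum of 20 the difference was -2.23 (adjusted p = 3.58e-06). Gadd45a, with 549 site counts in all WT total libraries, was below the minimum for the test.

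Between Bmal1-/- and WT total RNA 0 of the 10 member sites tested were called, against 8.77% of 13270 sites (edgeR, with 3 of the 10 at an unadjusted p below 0.05). Those 3 were the upstream Bhlhe40 site (0.32, adjusted p = 0.230) and the Cdkn1a sites chr17:29099453-29099589 (0.09, adjusted p = 0.144) and chr17:29100603-29100729 (-0.18, adjusted p = 0.126). A rhythm of usage in WT total RNA was called for 0 of the 10 sites, against 0.347% of 12973 sites, with the smallest unadjusted p at 0.495.

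**Figure D5:**
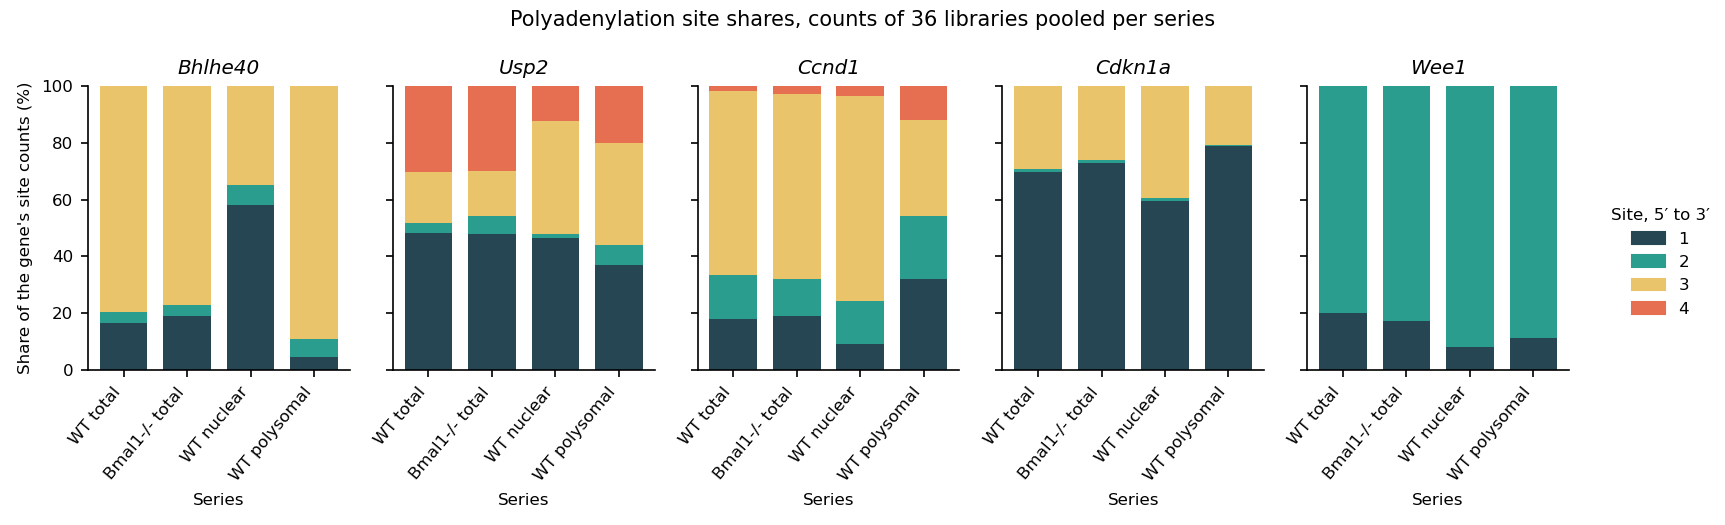
Share of each gene's site counts (y axis, percent, 36 libraries pooled) at its filtered sites, numbered 5′ to 3′, in WT total, Bmal1-/- total, WT nuclear and WT polysomal RNA. Site 1 of Bhlhe40 takes 58.0% in nuclear and 4.39% in polysomal RNA, and 19.0% in Bmal1-/- against 16.5% in WT total RNA.

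Related genes were read from fixed lists in the averaged comparison of Bmal1-/- with WT, where the median over all genes was -0.00 and 21.7% of genes were called higher and 22.4% lower. Of 16 core clock genes 9 rose, 4 fell and 3 did not pass. Nr1d1 and Nr1d2, which encode the REV-ERB repressors, fell by 3.39 and 2.79, and Dbp, a transcription factor of the clock output, fell by 1.76. Of 13 p53 target and growth arrest genes tested (16 listed) 6 rose, 1 fell and 6 did not pass, with a median of 0.20. Gadd45g (1.32), a relative of Gadd45a, and Trp53inp1 (0.62) and Ccng1 (0.31) rose.

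Of 11 cyclin, CDK and mitotic entry genes tested (20 listed) 2 rose, 6 fell and 3 did not pass, with a median of -0.24. Cdk6 rose (0.62), while Cdk4, the kinase partner of cyclin D1, and the D-type cyclin Ccnd2 fell (-0.33 and -0.24). Of 13 E-box binding relatives tested (16 listed) 1 rose, 4 fell and 8 did not pass, with Hes6 at -1.25, Mlxipl (ChREBP) at -0.51 and Tcf4 at 0.29. Of 17 ubiquitin-specific proteases 2 rose, 4 fell and 11 did not pass, with Usp10 at -0.33, Usp14 at -0.22 and Usp7 at 0.22. A WT total rhythm was called for 14 of 15 core clock genes, 3 of 13 p53 and growth arrest genes, 2 of 11 cyclin and CDK genes, 3 of 13 E-box binding relatives and 0 of 17 proteases, against 18.9% of all genes.

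Likeness to each member was measured as Pearson's r of log2(CPM + 0.5) over the 36 WT total libraries, among 11964 genes. The libraries share time of day, and r is given as a description. Usp2 was most like Per1 (0.947), Klf13 (0.919) and Wee1 (0.916). Ciart was most like A930033H14Rik (0.944), Pcsk4 (0.903) and Wee1 (0.899), and Wee1 like Usp2, Ciart and A930033H14Rik (0.884). Bhlhe41 was most like Dbp (0.847), Nr1d2 (0.814) and Rgs16 (0.802). Bhlhe40 was most like Gm14387 (0.810), Pik3r1 (0.804) and Gm45909 (0.794). Cdkn1a was most like Lgalsl (0.845), Prkar2a (0.838) and Acnat2 (0.833), and Gadd45a like Ppp3ca (0.802), Col4a3bp (0.776) and Kalrn (0.775). Ccnd1 had the weakest likeness, to Rasip1 (0.693), Mcm5 (0.666) and Ccnd2 (0.662). Among the members r was lowest between Cdkn1a and Bhlhe41 (-0.690).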

How the data were processed

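Count tables of genes and of polyadenylation sites for 144 libraries were used as the authors deposited them. The deposited values are whole-number counts that were not normalized, and per the submitters' processing notes STAR 2.4.2a, edgeR and HOMER were used with mm10 and GRCm38.p5, with no role given for each. Genes averaging 10 counts or more in the libraries compared were tested with edgeR 4.0.16 in R 4.3.3 (TMM scaling, robust quasi-likelihood fits, Benjamini-Hochberg adjustment over all features, threshold 0.05). Mean levels were contrasts over the 6 times, rhythms were a 24 h cosine and sine, and differences in rhythm were their interaction with the series. Site usage took log(gene site total + 0.5) as offset, for sites with at least 5% of a gene with a mean of at least 50 site counts. Sites were assigned to genes by position and strand. Strand came from the RefSeq table or, for 1951 genes that include Bhlhe40, Wee1 and Ccnd1, from the strand with more site counts.

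Replicate numbers were not used as pairs: against WT total RNA, same-numbered nuclear libraries deviated together (correlation above 0.1) in 34 of 36 pairs, polysomal ones in 0 and Bmal1-/- ones in 15, where every pair was required. The main p-values of nuclear against total RNA therefore treat libraries that deviated together as independent. A block on the 36 pairs was run as an alternative for levels and rhythm differences. No pair of libraries in a group held identical values (360 pairs). Alternatives were DESeq2 1.42.0, other scaling and count minimums, a replicate block and left-out libraries. The fits were tested on simulated counts. The members and gene lists were chosen with earlier results of these data known. Named genes were the members, the 3 genes most like each, at most 3 called genes per list by size of change, and Arntl.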

Additional observations from a re-analysis of the deposited data

Results flagged for a closer look

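Of 151 groups of 6 libraries with a mean of at least 10 counts of a member, 18 had a library far from the other 5 (the gap to the nearest library over the whole range above Dixon's 95% critical value). For independent, normally distributed values this happens in about 1 in 20 groups. The CPM were not transformed and the groups share libraries across genes, so that rate need not hold here. At ZT14 they were Cdkn1a in WT total replicate 4 (115.5 CPM, highest), nuclear replicate 4 (127.5 CPM, highest) and polysomal replicate 3 (326.6 CPM, highest), and Wee1 in WT total replicate 4 (4.24 CPM, lowest) and nuclear replicate 4 (3.77 CPM, lowest). These are the ZT14 libraries whose core clock genes were nearest to ZT22. Ccnd1 in WT total replicate 5 at ZT14 was high at 62.8 CPM.

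At ZT22 the libraries apart were Ccnd1 in WT total replicate 5 (134.4 CPM) and nuclear replicate 5 (210.0 CPM) and Bhlhe40 in the same libraries (44.9 and 76.7 CPM), all highest and all in libraries with Xist above 100 CPM. Cdkn1a in Bmal1-/- replicate 2 (385.7 CPM) and Gadd45a in WT total replicate 1 (6.19 CPM) were also highest at ZT22. The others were Bhlhe40 in nuclear replicate 2 at ZT10 (102.5 CPM, highest), Ccnd1 in WT total replicate 2 at ZT10 (79.7 CPM, highest), Cdkn1a in WT total replicate 2 at ZT6 (10.5 CPM, highest) and polysomal replicate 1 at ZT6 (7.69 CPM, lowest), Usp2 in polysomal replicate 1 at ZT18 (85.9 CPM, highest) and Wee1 in WT total replicate 5 at ZT18 (4.65 CPM, lowest).

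The 24 h rhythm differed between Bmal1-/- and WT total RNA by edgeR's interaction test for Usp2 (adjusted p = 2.47e-05), Wee1 (adjusted p = 1.42e-08) and Cdkn1a (adjusted p = 8.86e-06).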

How the results depend on the processing

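The call on the average genotype difference kept its direction and side of the threshold for 6 of 8 members under every alternative run, and changed for Bhlhe40 and Wee1 as given above. Counts of rhythm calls varied between the sets of 3 replicates and with the model. Genes with a rhythm in WT total RNA numbered 2260, and 1342 within replicates 1 to 3, 622 within replicates 4 to 6 and 1411 with time as a factor. In nuclear RNA they numbered 669, and 174, 237 and 419. In polysomal RNA they numbered 845, and 115 within replicates 1 to 3, 607 within replicates 4 to 6 and 346 with time as a factor. In Bmal1-/- they numbered 1, with 10 at a mean of at least 1 count, 3 with time as a factor and 0 within either set of 3, without the high-Xist libraries or with DESeq2. Differences in rhythm between the genotypes numbered 617, and 236 and 200 within the sets. For polysomal against total RNA they numbered 0, with 54 at a mean of at least 1 count, 0 within replicates 1 to 3, 2 within replicates 4 to 6, 7 without polysomal replicate 1 and 1 without the ZT14 libraries that stood apart. Sites with a genotype difference numbered 1164, and 744 within replicates 1 to 3 and 1611 within replicates 4 to 6. Sites with rhythmic usage numbered 45, and 7 and 3 within the sets.

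The replicate number as a block was tried as an alternative. The mean correlation of same-numbered libraries with WT total RNA was 0.284 for nuclear (28 of 36 best with their own number, and -0.0564 for other numbers), -0.104 for polysomal and 0.0621 for Bmal1-/- libraries. The block gave 1506 polysomal rhythms, 0 in Bmal1-/-, 2 differences in rhythm of polysomal RNA, 1929 site differences between the genotypes and 94 rhythmic sites. Blocking on 36 pairs gave 1 difference in rhythm of nuclear RNA and called nuclear Wee1 (-0.27, adjusted p = 0.00567). With the block Bhlhe40 was called for its rhythm difference (adjusted p = 0.0452) and at ZT2 (0.0297), the Cdkn1a sites were called between the genotypes (0.0296 and 0.00573), and Bhlhe41 at ZT22 was not (0.0566). The nuclear value of Cdkn1a was -0.018 with the number as a factor and -0.023 with 36 pairs.

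Values that changed sign were not called in the full comparison. Within replicates 1 to 3 they were Bhlhe40 on average (-0.084) and at ZT6 (-0.69), Wee1 at ZT6 (-0.40), Usp2 at ZT22 (0.30) and genotype usage at Bhlhe40 108663977 (-0.051), Ccnd1 144930708 (0.26), Usp2 44093854 (0.17) and Usp2 44095536 (-0.10). Within replicates 4 to 6 they were nuclear Cdkn1a (-0.084), polysomal Gadd45a (0.46), Usp2 at ZT6 (1.08), Bhlhe40 at ZT10 (0.052), Gadd45a at ZT22 (0.90), genotype usage at Ccnd1 144929977 (0.082) and nuclear usage at Ccnd1 144930708 (-0.20). Nuclear Cdkn1a was -0.10 at a mean of at least 1 count and -0.0055 without the ZT14 libraries. The cause was not tested. Leaving out the ZT14 libraries, and the high-Xist libraries at single times, was chosen after seeing the data. Counts of Ciart, Bhlhe41 and Gadd45a limit what could be seen in the fractions and in Bmal1-/-.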
